A study of Mus musculus with 24 samples.

Results

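Chemokines are small secreted proteins that steer leukocytes, and the genes that encode them and their receptors were examined in the left ventricle of mice with hypertension-induced left ventricular hypertrophy (hypertensive-LVH). Every gene whose symbol began with Ccl, Cxcl, Cx3cl, Ccr, Cxcr, Cx3cr, Xcr or Ackr followed by a digit was taken, which gave 48 of the 14912 genes measured. These were 30 ligands and 18 receptors. A mean value of at least 0.1 over all samples was reached by 44 of them (28 ligands and 16 receptors), and only these were tested, among 14026 such genes. Male wild-type C57BL/6J mice received angiotensin II (ANG II) at 1500 ng/kg/min from an osmotic mini-pump under the skin for 7 days (hypertensive-LVH group, 12 samples analysed here) or saline by the same route and for the same time (control group, 12 samples analysed here). Age was not given in the sources used here. Each heart was flushed with saline before the left ventricle was taken, and polyadenylated RNA of the whole ventricle was sequenced, so each value covers all the cells of the wall. Samples are named by their group and number.

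Ligands are grouped by the spacing of conserved cysteines into CC, CXC, CX3C and XC families, and a receptor is named for the family it binds. Conventional receptors couple to Gi proteins and make a leukocyte move up a gradient of ligand. Atypical receptors (Ackr) bind ligand without that signal and remove, transport or present it. In the heart, resident macrophages, endothelial cells and fibroblasts are known sources of chemokines, and monocytes bearing Ccr2 are known to enter the pressure-loaded ventricle.

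The deposited values carried the unit FPKM (fragments of a gene scaled to transcript length and to the size of the library), but 2741 of all values (0.766%) were negative, which FPKM cannot be. Leaving aside 278 genes whose values were all whole hundredths, exact ties between samples, found for 215 to 541 genes per pair, occurred within samples 1 to 3, 4 to 6, 7 to 9 or 10 to 12 of one group and for 0 genes between these sets or between groups. The values were therefore treated as FPKM that had been adjusted gene by gene within 4 sets of samples, a step that no source used here describes. Adjusted p-values, and p-values from relabeling samples within the sets, do not allow for such a step and may be too small. Of the 48 genes, 14 held at least 1 negative value. The set of samples 4 to 6 stood apart: fibroblast marker genes summed to a mean of 154 in its control samples, against 913 to 1001 in the control samples of the other sets. Results for chemokine genes and counts for pathway lists that rest on this set are given with and without it or by set. Counts and ranges of cell marker genes are given for all samples only. The labels' text on RNA extraction names another material, and 8 cardiomyocyte marker genes summed to between 30865 and 44059 in the hypertensive-LVH samples and between 40794 and 50787 in the controls. Sums over all genes were 460715 to 515185 and 482319 to 567727, respectively. The number of fragments behind a value was not stated, so its depth is unknown and no counting interval is given.

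The 48 genes spanned a wide range of levels. The plot of mean levels shows Cxcl12 at the top, followed by the scavenging receptor Ackr3, then Ccl21a, Ccl6 and Cxcl14. The ligands Cxcl17 and Cxcl3 and the receptors Ccr9 and Ccr8 had means under 0.1 in these samples and were not tested. Their highest single values were 0.234, 0.287, 0.0948 and 0.13 FPKM.

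**Figure D1:**
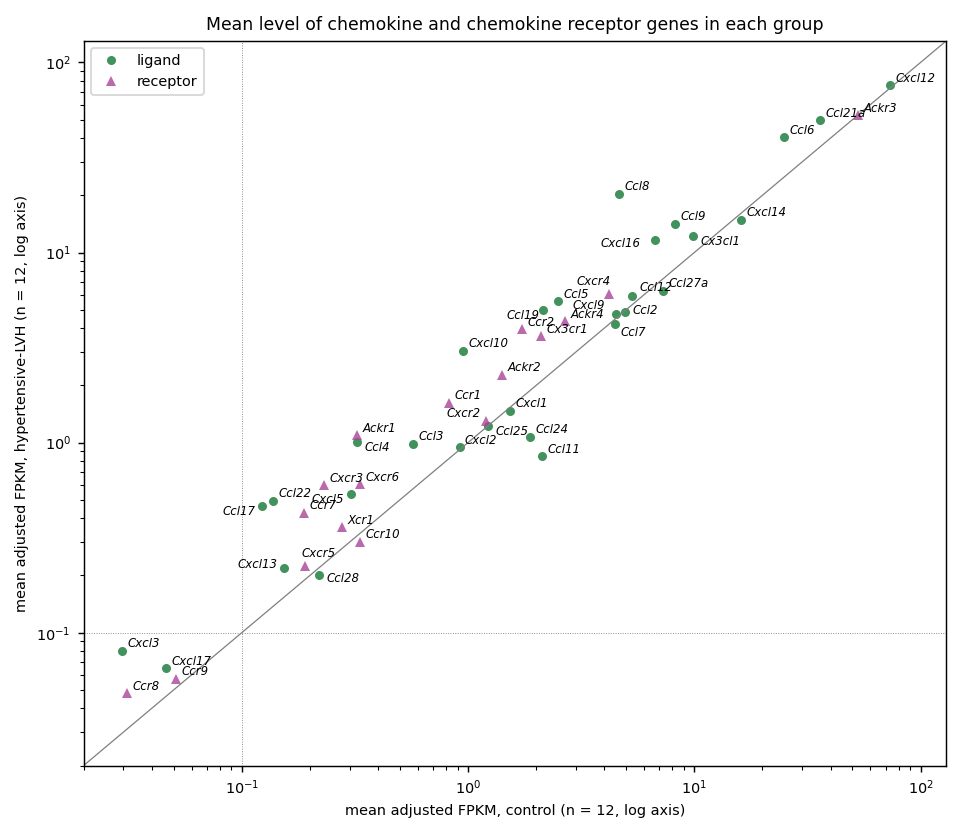
Mean adjusted FPKM of the named chemokine ligands (circles) and receptors (triangles) in the control group (x axis) and the hypertensive-LVH group (y axis), 12 samples each, both on log axes, with the line of equal means and dotted lines at 0.1. Cxcl12 and Ackr3 lie on the line at the top right, Ccl8, Cxcl10, Ccr2 and Ackr1 lie above it, and Ccl11 and Ccl24 lie below it.

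Of the 44 tested genes, 17 rose and 2 fell with ANG II at an adjusted p under 0.05 (limma on log2(FPKM + 1) with Benjamini-Hochberg adjustment over all 14026 genes). This was 43.2% of them, against 33.5% of all genes tested (20.9% higher and 12.6% lower). With an absolute log2 fold change over 0.5 as well, 10 were higher and 2 were lower, while all genes tested gave 4.52% higher and 1.4% lower. The ranges of the groups overlapped for every one of the 44, and 0.756% of all genes tested showed no overlap. Under median-ratio scaling 16 were higher and 2 lower, and under quantile normalization 16 and 3, while the share of higher genes among all those past the threshold went from 62.3% to 51.7% and 39.6%. The median log2 fold change was 0.25 over the 44 and 0.05 over all genes tested. Fold changes are on the log2(FPKM + 1) scale with negative values set to 0, which understates the change of genes with low values.

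Ligands and receptors were then set side by side. Of the 28 ligands, 8 were higher and 2 were lower (35.7% past the threshold, median log2 fold change 0.14). Of the 16 receptors, 9 were higher and 0 were lower (56.2%, median 0.31). Over all genes tested the share past the threshold was 33.5% and the median was 0.05, close to the share of the ligands. An unadjusted p under 0.05 was found by limma for 11 of 16 receptors, 13 of 28 ligands and 6270 of all 14026 genes tested. Estimates lay above 0 for 15 of 16 receptors, 18 of 28 ligands and 8944 of the 14026 genes. The ligands ran from -0.77 to 1.44 and the receptors from -0.04 to 0.81, so ligands held both the lowest and the highest estimates. The difference between the kinds was described by these counts and medians and was not tested.

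**Figure D2:**
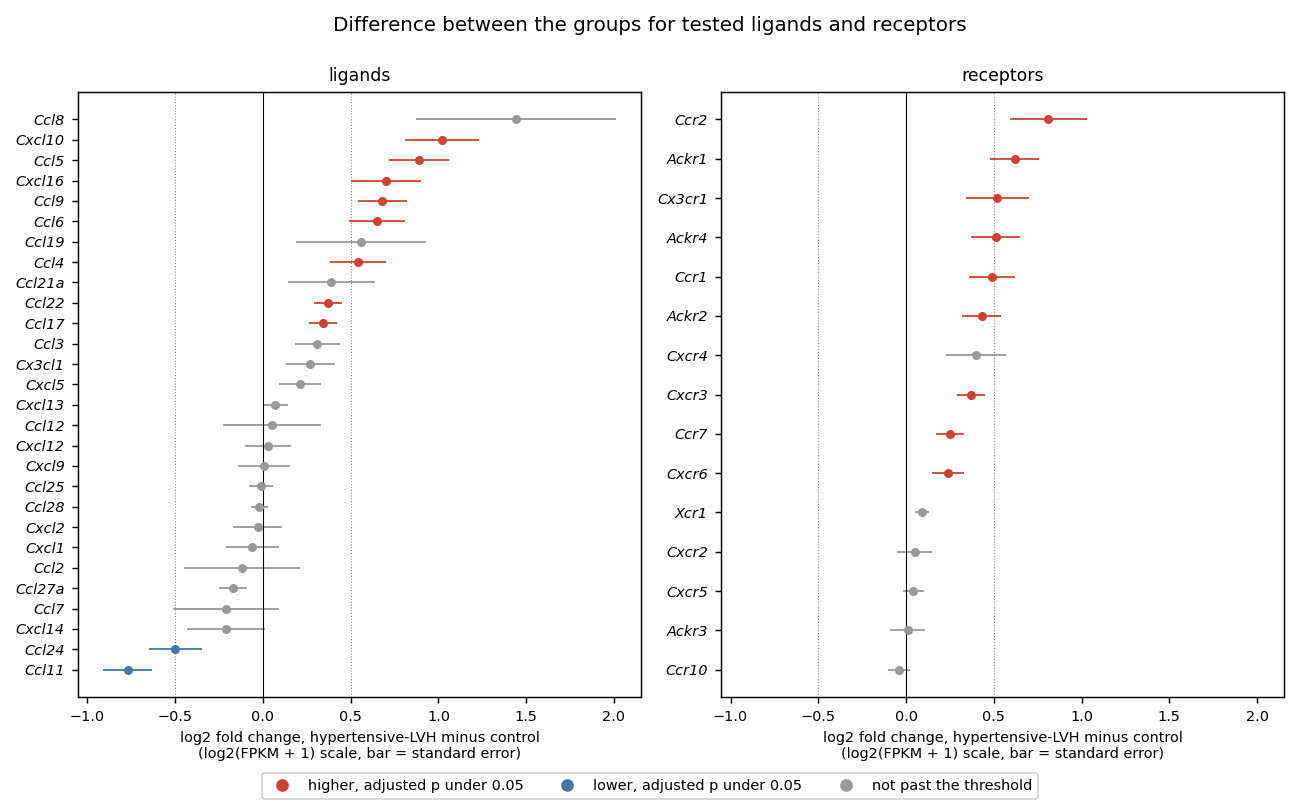
Log2 fold change (hypertensive-LVH minus control, log2(FPKM + 1) scale) of the named ligands (left) and receptors (right) that were tested, with standard errors as bars, red for higher and blue for lower at an adjusted p under 0.05, grey for the rest, and dotted lines at 0.5 and -0.5. Both blue points, Ccl11 and Ccl24, are ligands, and Ccl8 has the widest bar.

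This picture depended on samples 4 to 6. Without them, 7 of the 44 genes were higher and 2 were lower (20.5%, with 20.0% of all genes tested), and 8 of these 9 were among the 19. Of the receptors 2 of 16 (12.5%) and of the ligands 7 of 28 (25%) then passed the threshold, and the median log2 fold change was 0.005 over the ligands and 0.19 over the receptors. The 8 genes that passed both with and without that set were Ccl5, Ccl6, Ccl9, Ccl11, Ccl22, Cxcl10, Ccr1 and Ackr1. The median difference over the 28 ligands within the sets was -0.04, 0.47, 0.19 and 0.01 in the order of the samples, and over the 16 receptors it was 0.03, 0.64, 0.31 and 0.13. Over all genes tested it was -0.01, 0.18, -0.02 and 0.03. Samples 4 to 6 also held the largest median difference of other marker lists, such as fibroblast (2.62), mural cell (1.02) and endothelial cell (0.44). The platelet, red blood cell and neutrophil lists had theirs in other sets. The macrophage marker genes followed the same order of sets as the ligands and receptors. Their mean sum was 378 in hypertensive-LVH against 357 in control samples for samples 1 to 3, 558 against 207 for samples 4 to 6, 509 against 249 for samples 7 to 9, and 407 against 348 for samples 10 to 12. The part of macrophages in these results was not tested, and in whole tissue more cells of a type cannot be told apart from more RNA per cell.

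**Figure D3:**
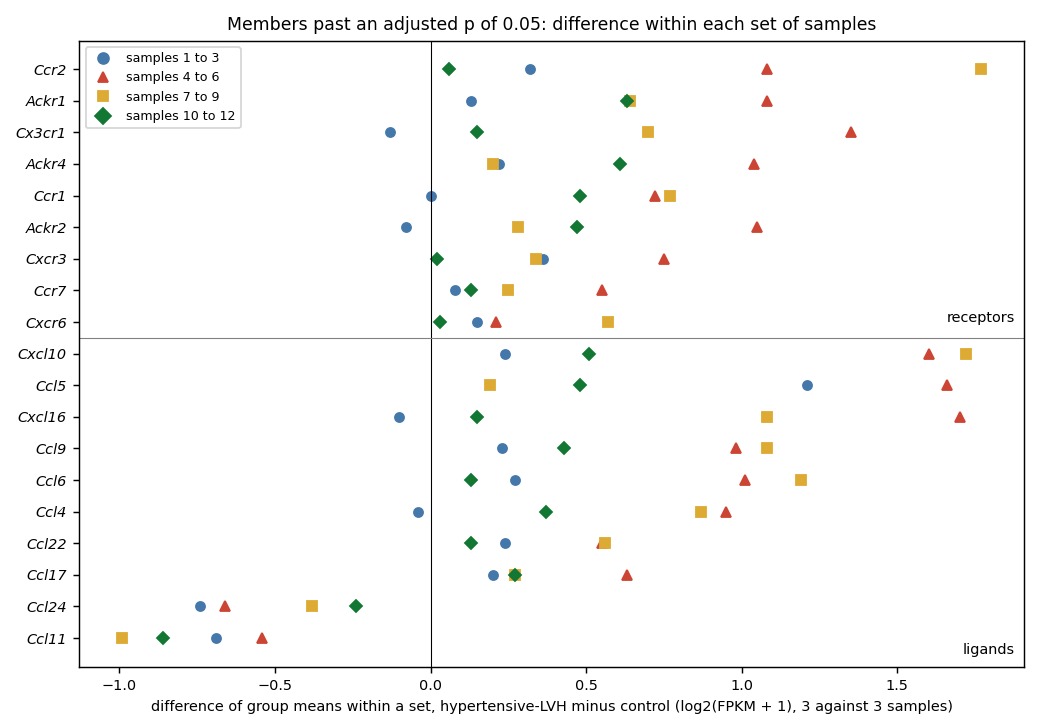
Difference between the group means within each set of samples (3 hypertensive-LVH against 3 control samples, log2(FPKM + 1) scale) for the 19 genes past an adjusted p of 0.05, ligands below the grey line and receptors above it, with a symbol for each set. Of the 19 genes, 15 have the same direction in all 4 sets, Ccl11 and Ccl24 lie left of 0 in each of them, and samples 4 to 6 or 7 to 9 hold the largest difference of each of the 17 higher genes.

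Within the hypertensive-LVH group, the same few samples stood high for most of the genes. Sample 6 had the highest value of the group for 10 of the 17 higher genes, sample 8 for 5, and samples 7 and 11 for 1 each. The macrophage marker sum was 751 in sample 6 and 707 in sample 8, the highest values of the group, and 282 in sample 12, the lowest. Samples 2, 3, 9 and 10 were among the highest 3 samples for 0 of the 17 genes.

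Cxcl10, an interferon-induced ligand that draws activated T cells and NK cells through Cxcr3, showed the clearest rise. Its lowest, median and highest values were 1.46, 2.25 and 6.78 FPKM in the hypertensive-LVH group and 0.0918, 0.982 and 1.94 in the control group. Of the 12 hypertensive-LVH samples, 11 exceeded the highest control sample and the remaining sample still lay above the control median. Its log2 fold change was 1.02 ± 0.21 (SE), with an adjusted p of 0.000639 by limma and a p of 5e-05 by an exact two-sided permutation of the labels within the 4 sets (160000 relabelings). Within the sets the difference was 0.24, 1.60, 1.72 and 0.51. An exon of Cxcl10 overlaps one of Art3 on the other strand, and a strand-specific library was not described.

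Cxcl9, which shares the receptor Cxcr3, gave no such result. Its values ran from 1.91 through a median of 4.27 to 10.1 FPKM in hypertensive-LVH and from 3.14 through 4.58 to 6.5 in control samples. The log2 fold change was 0.005 ± 0.15 (adjusted p = 0.985), and its sign turned under several settings. Cxcl9 (chr5:92321347-92328079) and Cxcl10 (chr5:92346638-92348889) are neighbours on the minus strand in GENCODE vM21. Whether the changes of these genes differ was not tested.

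Cxcr3, the receptor of both, was at a low level in both groups and rose in the hypertensive-LVH group. It ran from 0.204 through 0.559 to 1.04 FPKM, against -0.005 through 0.233 to 0.555 in controls, and 6 of 12 samples exceeded the highest control. The estimate was a log2 fold change of 0.37 ± 0.08 (adjusted p = 0.00172) and 0.24 without samples 4 to 6 (adjusted p = 0.0597). Of 9 T cell marker genes, 2 were higher, and the sums of all 9 overlapped between the groups (3.43 to 10.7 and 2.97 to 6.12 FPKM). The part of T cells was not tested.

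The promoters of Cxcl10 and Cxcl9 are shown because these neighbouring genes gave different results, and that of Cxcl2 because it holds a kappaB motif while its gene did not pass the threshold. Each run covers 250 bases before and 50 bases after the annotated start (RefSeq, GRCm38.p6), read 5′ to 3′ on the strand of the gene. Capitals mark matches, on either strand, to the consensus kappaB motif or to the interferon response motif, which is 2 copies of GAAA with any 2 bases between them. The Cxcl10 run is chr5:92348840-92349139 (minus strand), the Cxcl9 run is chr5:92328030-92328329 (minus strand) and the Cxcl2 run is chr5:90903649-90903948 (plus strand).
Cxcl10: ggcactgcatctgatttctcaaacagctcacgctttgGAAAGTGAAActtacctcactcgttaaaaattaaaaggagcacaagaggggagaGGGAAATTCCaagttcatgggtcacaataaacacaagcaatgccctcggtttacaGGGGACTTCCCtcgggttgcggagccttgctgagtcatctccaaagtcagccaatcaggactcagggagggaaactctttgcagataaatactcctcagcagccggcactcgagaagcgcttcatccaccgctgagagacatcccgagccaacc
Cxcl9: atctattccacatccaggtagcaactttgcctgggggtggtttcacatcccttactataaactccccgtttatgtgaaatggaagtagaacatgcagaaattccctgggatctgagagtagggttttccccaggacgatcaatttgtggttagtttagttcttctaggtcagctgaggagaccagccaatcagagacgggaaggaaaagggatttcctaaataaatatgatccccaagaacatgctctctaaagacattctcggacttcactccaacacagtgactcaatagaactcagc
Cxcl2: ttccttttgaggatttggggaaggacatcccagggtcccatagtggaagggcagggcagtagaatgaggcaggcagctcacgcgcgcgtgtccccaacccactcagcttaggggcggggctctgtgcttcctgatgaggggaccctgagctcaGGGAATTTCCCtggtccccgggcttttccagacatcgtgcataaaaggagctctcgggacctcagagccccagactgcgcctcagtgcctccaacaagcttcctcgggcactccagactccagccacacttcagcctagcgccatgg
The Cxcl10 run held 3 kappaB matches, 2 of which overlap, and 1 interferon response match starting 213 bases before the start. The Cxcl9 run held 0 matches to either, and the Cxcl2 run held 2 overlapping kappaB matches on opposite strands. A promoter was found for 35 of the 48 genes (38 promoters). The kappaB motif was in 8 of these 38 (21.1%). It was in 8.46% of all 32851 annotated promoters and in 10.5% of the 14890 promoters of genes measured here. The interferon response motif was in 3 of 38 (7.89%), 3.44% of all promoters and 3.12% of those of measured genes. The motif TTCNNNGAA, bound by STAT factors, was in 2 of 38 (5.26%), 8.30% and 7.03%, in the same order. Of the 13 promoters of higher genes, 4 (30.8%) held the kappaB motif (Cxcl10, Ccl9, Ccr1 and Ackr2). The other promoters with it were those of Cxcl1, Cxcl2, Cxcl3 and Ccl27a, none of which passed the threshold. A match is a string of letters and was not read as a bound site.

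Among 6 further inflammatory CC ligands, 4 were higher (66.7%, against 33.5% of all genes tested past the threshold) and 2 did not pass. Ccl5, made by T cells, NK cells and macrophages, ran from 2.81 through a median of 5.15 to 10.1 FPKM in hypertensive-LVH and from 0.858 through 2.49 to 3.82 in control samples. All 12 hypertensive-LVH samples exceeded the control median and 9 exceeded every control. On the log2 scale the fold change was 0.89 ± 0.17 (adjusted p = 0.000379), and the difference within the sets was 1.21, 1.66, 0.19 and 0.48. Ccl9 and Ccl6, mouse ligands of Ccr1 made largely by myeloid cells, were higher from a larger base. Ccl9 ran from 8.67 through 13.1 to 22.6 FPKM against 5.8 through 7.82 to 11.3, and 8 samples exceeded every control (log2 fold change 0.68 ± 0.14, adjusted p = 0.000825). Ccl6, the fourth highest of the 48 genes, ran from 24.4 through 35.8 to 69.2 FPKM against 15.9 through 24.8 to 40, and 5 samples exceeded every control (0.65 ± 0.16, adjusted p = 0.00354). Ccl4, an attractant of T cells and monocytes, ran from 0.124 through 0.72 to 2.08 FPKM against -0.0936 through 0.327 to 0.812. Its groups overlapped more, with 5 samples above every control (0.54 ± 0.16, adjusted p = 0.0127, and 0.40 with adjusted p = 0.13 without samples 4 to 6). The call was lost without samples 7 to 9 as well (0.43, adjusted p = 0.0606).

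Ccl3 and Ccl8 were the 2 that did not pass. Ccl3, the neighbour of Ccl4, had medians of 0.898 and 0.601 FPKM (0.31, adjusted p = 0.077), and it passed only when hypertensive-LVH sample 12 was left out (adjusted p = 0.0278). Ccl8, a monocyte attractant made by tissue macrophages, had the largest estimate of all 44 genes and the widest spread. It ran from -0.607 through 15.8 to 66.4 FPKM in hypertensive-LVH and from -9.43 through 8.03 to 12.1 in control samples. The negative values were those of control samples 4, 5 and 6 and of hypertensive-LVH sample 9. Its log2 fold change was 1.44 ± 0.57 (adjusted p = 0.0541), and within the sets it was 0.12, 4.98, -0.20 and 0.83. It passed when hypertensive-LVH sample 9 (adjusted p = 0.00634) or 12 (0.0474), control sample 1 (0.0448) or 2 (0.0424), or samples 7 to 9 of each group (0.02) were left out, and it passed by a Wilcoxon rank-sum test on all samples (adjusted p = 0.0193).

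Ccr1, the receptor of Ccl3, Ccl5, Ccl6 and Ccl9, was higher. Ccr1 ran from 0.642 through 1.29 to 3.04 FPKM in hypertensive-LVH and from 0.406 through 0.699 to 1.32 in control samples. Of the 12 samples, 11 exceeded the control median and 4 exceeded every control (0.49 ± 0.13, adjusted p = 0.00541).

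Ccr2, the receptor that brings inflammatory monocytes out of the blood, was higher, whereas the 3 ligands that bind it were not past the threshold. Ccr2 ran from 1.2 through 3.08 to 9.07 FPKM in hypertensive-LVH and from 0.336 through 1.77 to 2.79 in control samples. Of the 12 samples, 11 exceeded the control median and 8 exceeded every control. The log2 fold change was 0.81 ± 0.22 (adjusted p = 0.00734, exact permutation within the sets p = 0.000225). Samples 7 to 9 (1.77) and 4 to 6 (1.08) gave larger differences than samples 1 to 3 (0.32) and 10 to 12 (0.06), and without samples 4 to 6 the estimate was 0.72 (adjusted p = 0.0622). Monocyte marker genes summed to 58.3 to 130 FPKM in hypertensive-LVH and 19.7 to 80.9 in control samples. Most of these sums came from Ace (mean 48.7 against 27.8) and Nr4a1 (34.8 against 28). Of 7 tested, 2 (Plac8 and Ace) were higher. The other 5 were not past the threshold, with Ly6c2 (adjusted p = 0.119) and Chil3 (0.13) among them. The part of monocytes was not tested.

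The ligands Ccl2, Ccl7 and Ccl12 spread widely in both groups. Ccl2 ran from -0.00811 through 3.96 to 13.6 FPKM in hypertensive-LVH and from 1.06 through 4.56 to 14.0 in control samples, so neither group stood above the other. Its log2 fold change was -0.12 ± 0.33 (adjusted p = 0.791). Ccl7 (-0.21 ± 0.30, adjusted p = 0.614) and Ccl12 (0.05 ± 0.28, adjusted p = 0.9) were not past it either, and 0 of the 3 had an unadjusted p under 0.05 or passed by a Wilcoxon rank-sum test. Within samples 7 to 9 the differences of the 3 were 1.28, 0.84 and 1.07, and within samples 10 to 12 they were -0.67, -0.71 and -0.89. Within samples 4 to 6 Ccl2 (-0.81) and Ccl7 (-0.66) were below 0 and Ccl12 (0.33) was above it. All 3 lie beside Ccl11 and Ccl8 in one cluster, from Ccl2 (chr11:82035571-82037453) to Ccl8 (chr11:82115185-82116799).

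The 4 ligands linked to type 2 immunity split evenly, with all 4 past the threshold, as were 33.5% of all genes tested. Ccl11 (eotaxin), which attracts eosinophils, was the most clearly lower gene. It ran from -0.152 through 0.697 to 1.7 FPKM in hypertensive-LVH and from 1.03 through 1.88 to 3.02 in control samples. None of the 12 samples exceeded the control median and 9 lay below every control. The estimate was a log2 fold change of -0.77 ± 0.14 (adjusted p = 0.000195, exact permutation within the sets p = 0.0001), and it was -0.69, -0.54, -0.99 and -0.86 within the sets. Without samples 4 to 6 it was -0.85 (adjusted p = 0.000824). Ccl11 (chr11:82057823-82062955) lies between Ccl7 and Ccl12.

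Ccl24 (eotaxin-2), also an eosinophil attractant, was lower as well. It ran from 0.101 through 0.932 to 2.08 FPKM against 0.838 through 1.73 to 3.25, and 6 samples lay below every control (-0.50 ± 0.15, adjusted p = 0.0102). It was lower in each set, and the call was lost without samples 4 to 6 (-0.45, adjusted p = 0.0776) and without samples 1 to 3. Of the eosinophil marker genes only Il5ra was high enough to be tested and it did not pass (0.04, adjusted p = 0.487), and the sums of the list were 0.161 to 0.659 and 0.154 to 0.542 FPKM. The macrophage marker Timd4, known from long-lived resident macrophages, was the only gene of its list of 12 that was lower (-0.45, adjusted p = 0.00213), while the other 11 were higher. The part of these cells was not tested.

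Ccl22 and Ccl17, made by dendritic cells and macrophages and bound by Ccr4, were higher at low levels. Ccl22 ran from 0.159 through 0.46 to 1.07 FPKM against -0.0523 through 0.151 to 0.288, with all 12 samples above the control median and 9 above every control (0.37 ± 0.08, adjusted p = 0.001). Ccl17 ran from 0.0212 through 0.509 to 0.875 FPKM against -0.192 through 0.154 to 0.308, and 10 samples exceeded every control (0.34 ± 0.08, adjusted p = 0.00341, and 0.0701 without samples 4 to 6). Each held negative values in 2 control samples. Ccl22 (chr8:94745590-94751699) and Ccl17 (chr8:94810453-94812036) flank Cx3cl1. Of 7 dendritic cell markers, 4 were higher (Flt3, Cd209a, Clec9a and Itgae), or 57.1% against 33.5% of all genes tested past the threshold. Zbtb46, Clec10a and Siglech did not pass. The sums of all 7 were 11.0 to 22.5 FPKM against 8.68 to 13.6, and Zbtb46 had the highest mean of them (6.46 against 6.22). The receptors Ccr3 and Ccr4 were not analysed here.

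**Figure D4:**
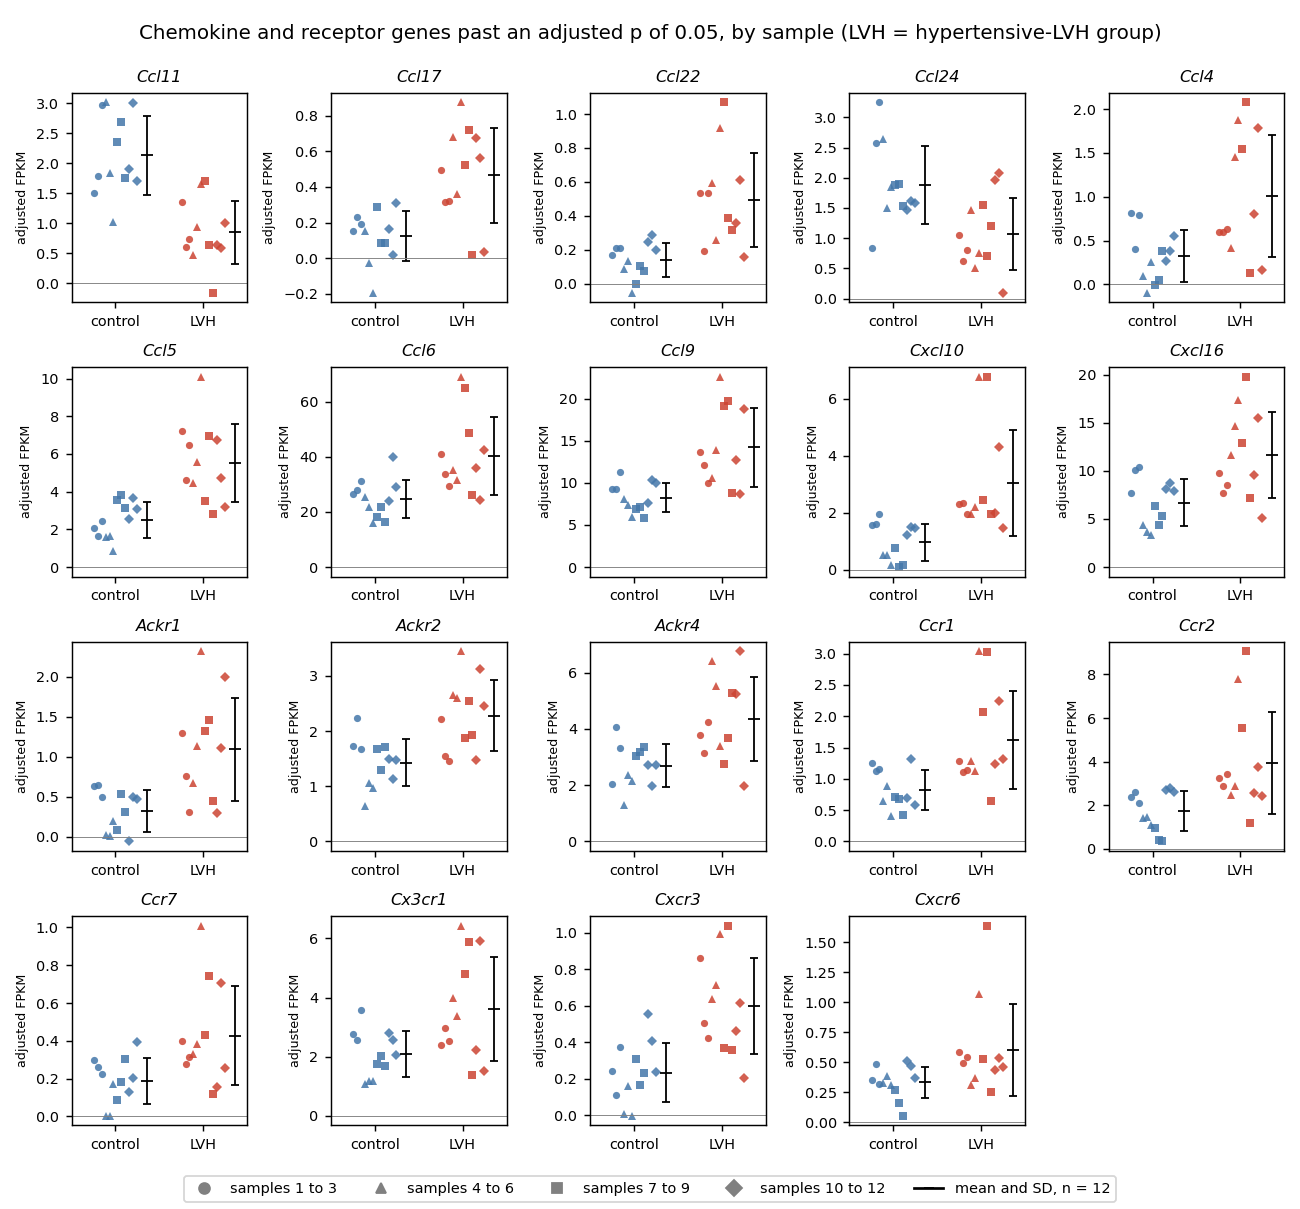
Adjusted FPKM of the 19 genes past an adjusted p of 0.05 in each control (blue) and hypertensive-LVH (red) sample, on linear axes of different range, with a symbol for each set of samples and the mean and SD of each group in black. The groups overlap in every panel, most narrowly for Cxcl10, where 11 of 12 hypertensive-LVH samples lie above all controls, and only Ccl11 and Ccl24 are lower.

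Of the 3 tested neutrophil-attracting ligands, 0 passed the threshold by limma or by a Wilcoxon rank-sum test, and 0 had an unadjusted p under 0.05. Cxcl1 (medians 1.29 and 1.42 FPKM, log2 fold change -0.06, adjusted p = 0.798), Cxcl2 (0.907 and 0.967 FPKM, -0.03, adjusted p = 0.887) and Cxcl5 (0.415 and 0.346 FPKM, 0.21, adjusted p = 0.158) were at low levels. Their receptor Cxcr2 had medians of 1.11 and 1.15 FPKM (0.05, adjusted p = 0.704). Of 8 neutrophil markers tested, 1 was higher (Csf3r, 0.50, adjusted p = 0.0161), and S100a8 and S100a9 had adjusted p-values of 0.754 and 0.928.

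Cxcl12, which retains hematopoietic cells and guides vessel growth, had the highest level of the 48 genes. It ran from 45.3 through 79.2 to 108 FPKM in hypertensive-LVH and from 53.4 through 72.6 to 100 in control samples. The groups lay on top of each other (log2 fold change 0.03 ± 0.13, adjusted p = 0.894). Within samples 4 to 6 it was 0.77, and in the other sets it was between -0.34 and -0.13. Ackr3, which scavenges Cxcl12, came next in level at 38.8 through 51.6 to 69.3 FPKM against 36.2 through 54.1 to 67.3 (0.01 ± 0.10, adjusted p = 0.962). Cxcr4, the signaling receptor of Cxcl12, ran from 2.96 through 5.31 to 10.0 FPKM against 2.37 through 4.03 to 7.1, and 10 of 12 samples exceeded the control median. It missed the threshold (0.40 ± 0.17, adjusted p = 0.0679). Within the sets the difference of Cxcr4 was -0.07, 1.09, 0.39 and 0.17, so it was largest in samples 4 to 6. Cxcr4 passed when hypertensive-LVH sample 9 (adjusted p = 0.0271) or 10 (0.0314), control sample 3 (0.0354) or samples 1 to 3 of each group (0.0427) were left out.

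Of 8 tested homeostatic ligands, Cxcl12 included, 0 passed the threshold by limma, 0 by a Wilcoxon rank-sum test and 1 (Ccl27a) had an unadjusted p under 0.05. Ccl21a and Ccl19, which guide dendritic cells and T cells bearing Ccr7 into lymphatic vessels and lymph nodes, have near-identical gene copies, so their values are uncertain. Ccl21a ran from 13.6 through 51.4 to 96.7 FPKM against 15.2 through 33.6 to 67.4 (0.39 ± 0.25, adjusted p = 0.241), with 1.55 in samples 4 to 6 and between -0.41 and 0.39 elsewhere. Ccl19 had medians of 3.2 and 3.7 FPKM, and its values in control samples 4, 5 and 6 were all negative. Its estimate was 0.56 ± 0.37 (adjusted p = 0.235) and turned to -0.43 without samples 4 to 6 (adjusted p = 0.0143). Cxcl14, a ligand of epithelium and fibroblasts, ran from 4.25 through 12.7 to 30.1 FPKM against 7.53 through 16.1 to 22.2 (-0.21 ± 0.22, adjusted p = 0.484). Within samples 4 to 6 its difference was 0.54, and in the other sets it was between -0.54 and -0.41. The estimates of Ccl27a, Ccl25, Ccl28 and Cxcl13 lay between -0.17 and 0.07. Ccl27a (-0.17, adjusted p = 0.101) passed without control sample 7 (-0.22, adjusted p = 0.0176), without samples 7 to 9 (-0.23, adjusted p = 0.0366) and under quantile normalization (-0.25, adjusted p = 0.029). Among their receptors, Ccr7 was higher, from 0.117 through 0.357 to 1.01 FPKM against 0.00264 through 0.194 to 0.395. Its groups overlapped, with 5 samples above every control (0.25 ± 0.08, adjusted p = 0.0188, and 0.188 without samples 4 to 6). Ccr10, bound by Ccl27a and Ccl28, and Cxcr5, bound by Cxcl13, gave estimates of -0.04 and 0.04.

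Of the ligands, 2 are anchored in the membrane and can be shed. Cxcl16, which also serves macrophages as a scavenger receptor, ran from 5.14 through 10.7 to 19.8 FPKM in hypertensive-LVH and from 3.28 through 7.04 to 10.4 in control samples, with 6 samples above every control. On the log2 scale the fold change was 0.70 ± 0.20 (adjusted p = 0.00777), the sets gave -0.10, 1.70, 1.08 and 0.15, and the call was lost without samples 4 to 6 (0.37, adjusted p = 0.194) and without samples 7 to 9. Its receptor Cxcr6, found on effector T cells, ran from 0.249 through 0.51 to 1.64 FPKM against 0.0528 through 0.34 to 0.507. Its call was marginal (0.24 ± 0.09, adjusted p = 0.0444) and was lost in 14 of 24 fits that left out 1 sample (hypertensive-LVH 1, 3, 6, 8 or 11, or control 1, 3, 4, 5, 6, 7, 8, 9 or 12, adjusted p up to 0.0838). It was also lost when any of the 4 sets was left out, under both other scalings, with the set as a term and by a Wilcoxon rank-sum test (adjusted p = 0.0557).

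Cx3cl1 (fractalkine), an endothelial ligand, had medians of 12.6 and 10.8 FPKM, and 6 hypertensive-LVH samples exceeded every control (0.27 ± 0.14, adjusted p = 0.145). The sets gave -0.04, 1.04, 0.06 and 0.01, so a difference over 0.06 was seen within samples 4 to 6 alone. Its receptor Cx3cr1, a marker of patrolling monocytes and resident macrophages, ran from 1.39 through 3.17 to 6.43 FPKM against 1.09 through 2.05 to 3.57. Its log2 fold change was 0.52 ± 0.18 (adjusted p = 0.0315). The call was lost when hypertensive-LVH sample 6, 8 or 11 or control sample 4, 5 or 6 was left out (0.44 to 0.47, adjusted p 0.0548 to 0.0605). It was also lost without samples 4 to 6 (0.24, adjusted p = 0.404), without samples 7 to 9 (0.46, adjusted p = 0.0979) and by a Wilcoxon rank-sum test (adjusted p = 0.0941). Xcr1, found on cross-presenting dendritic cells, was at 0.371 and 0.29 FPKM (medians, 0.09, adjusted p = 0.0763). It passed when hypertensive-LVH sample 9 (adjusted p = 0.0354) or control sample 2 (0.0378) or 7 (0.0497) was left out, and without samples 7 to 9 (0.0345).

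**Figure D5:**
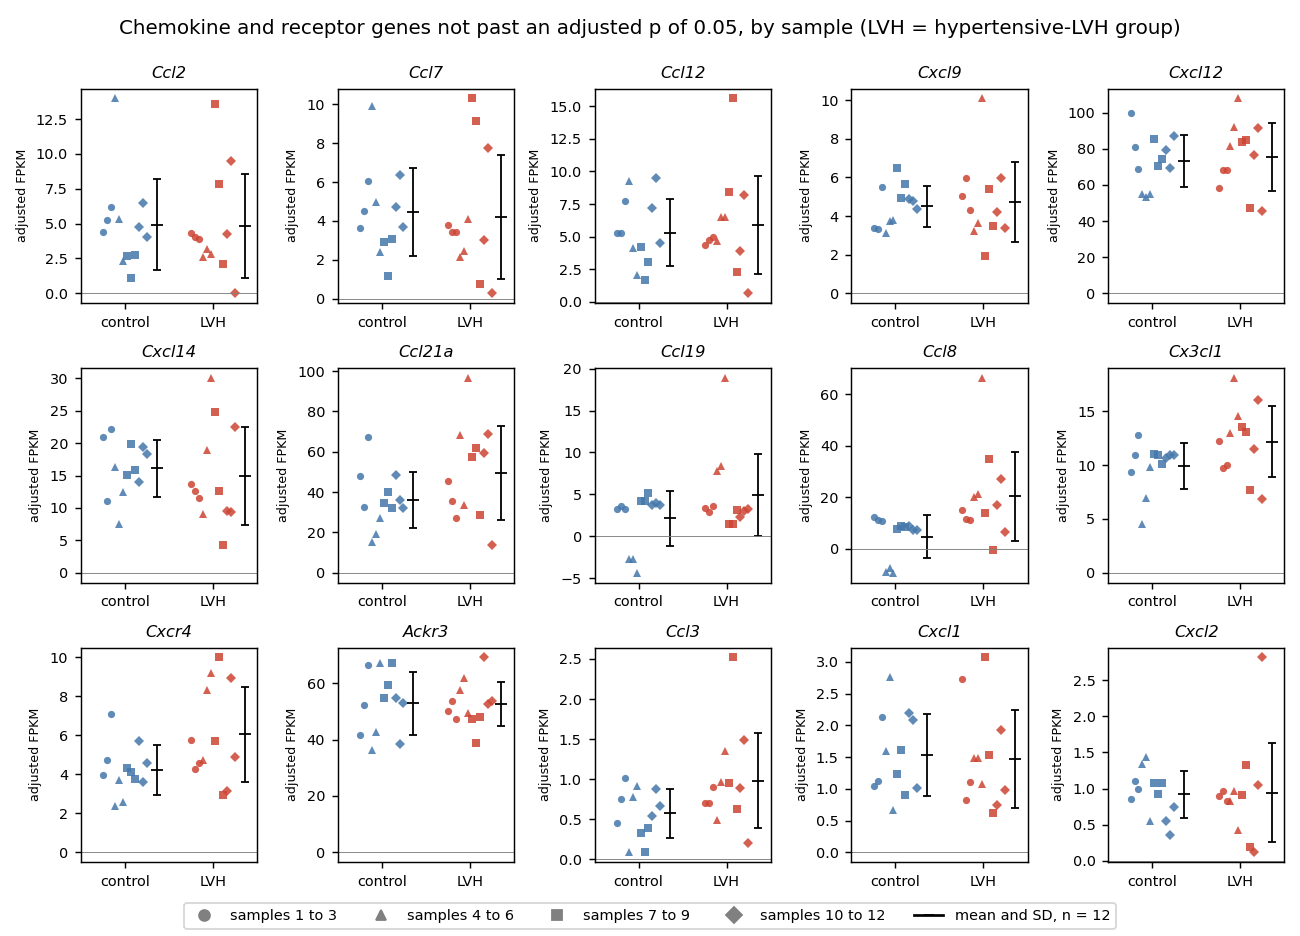
Adjusted FPKM of 15 genes not past an adjusted p of 0.05 in each control (blue) and hypertensive-LVH (red) sample, on linear axes of different range, with a symbol for each set of samples and the mean and SD of each group in black. Control samples 4 to 6 lie below 0 for Ccl8 and Ccl19, and Cxcl12, Ackr3 and Ccl2 cover the same range in both groups.

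Of the 4 atypical receptors, 3 were higher (75%, against 33.5% of all genes tested past the threshold) and Ackr3 did not pass. Ackr1, the chemokine binder of venules and red cells, ran from 0.297 through 1.12 to 2.32 FPKM in hypertensive-LVH and from -0.0568 through 0.396 to 0.648 in control samples, with 9 samples above every control. The log2 fold change was 0.62 ± 0.14 (adjusted p = 0.00191), and the sets gave 0.13, 1.08, 0.64 and 0.63. Red blood cell markers moved the same way, with 5 of 6 higher and sums of 779 to 6445 FPKM against 56.3 to 2949, while 1 of 7 endothelial markers was higher and 1 was lower. Their part in the result was not tested, and an exon of Ackr1 overlaps one of Cadm3 on the same strand.

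Ackr4, which degrades Ccl19, Ccl21 and Ccl25, ran from 1.97 through 4.02 to 6.77 FPKM against 1.31 through 2.71 to 4.08 (0.51 ± 0.14, adjusted p = 0.00792). Ackr2, which degrades inflammatory CC ligands and is known from lymphatic endothelium, ran from 1.45 through 2.34 to 3.45 FPKM against 0.642 through 1.48 to 2.23 (0.43 ± 0.11, adjusted p = 0.0037). For each of them 6 samples exceeded every control. Without samples 4 to 6 neither passed (adjusted p = 0.123 and 0.117), and Ackr2 gave -0.08 within samples 1 to 3. Of 6 lymphatic endothelial markers 5 were higher (Flt4, Pdpn, Lyve1, Mmrn1 and Reln). The sixth, Prox1, had an estimate below 0 and did not pass (-0.21, adjusted p = 0.139). The sums were 40.5 to 70.9 FPKM against 34.0 to 52.6, and Lyve1 is in the macrophage list as well. Their part was not tested. The exons of Ackr4 overlap those of Acad11, those of Cx3cr1 the antisense gene Gm33858 and those of Cxcl16 Zmynd15, each on the other strand. So do those of Ccl27a (Il11ra1), Ccl25 (Elavl1) and Cxcr5 (Bcl9l), and those of Ccr9 overlap genes on both strands. Reads of all these genes may be shared.

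The genes through which chemokine receptors act were described by list. Of 48 signaling genes downstream of the receptors, 27 were higher and 0 were lower (56.2%, against 33.5% of all genes tested, median log2 fold change 0.24). Without samples 4 to 6 this was 7 higher and 0 lower (14.6%, against 20% of all genes tested). Among the 27 with all samples were Ncf1, a subunit of the phagocyte oxidase (0.85, adjusted p = 0.000474), and the arrestin Arrb2, which turns receptors off (0.59, adjusted p = 0.00421). Of 21 genes of leukocyte adhesion and transmigration, 10 were higher and 1 was lower (52.4%, and 4 and 1, or 23.8%, without samples 4 to 6), led by the hyaluronan receptor Cd44 (0.91, adjusted p = 0.000112) and the integrin subunits Itgam (0.84, adjusted p = 0.00169) and Itgb2 (0.65, adjusted p = 0.00239). The lower one was Cd99l2 (-0.12, adjusted p = 0.0125). Several of these are expressed mainly in leukocytes, and their part in the counts was not tested.

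Of 24 upstream cytokines, receptors and transcription factors, 13 were higher and 0 were lower (54.2%, against 33.5% of all genes tested), led by Irf8 (0.73, adjusted p = 0.000413), which drives myeloid development, the interferon factor Irf7 (0.70, adjusted p = 0.000921) and the NF-kappaB inhibitor Nfkbia (0.51, adjusted p = 0.000391). Of 20 genes that trim chemokines or present them on matrix, 11 were higher and 0 were lower (55%), led by the metalloproteinases Mmp14 (1.09, adjusted p = 0.00121) and Mmp2 (1.03, adjusted p = 0.0343) and the syndecan Sdc1 (0.69, adjusted p = 0.0136). Of 17 other chemoattractants and their receptors, 5 were higher and 0 were lower (29.4%), led by the complement receptors C3ar1 (0.67, adjusted p = 0.00743) and C5ar1 (0.50, adjusted p = 0.0187) and the sphingosine phosphate receptor S1pr1 (0.40, adjusted p = 0.00289). Without samples 4 to 6 these counts were 5 higher and 1 lower of the 24 (25%), 1 and 0 of the 20 (5%) and 2 and 1 of the 17 (17.6%), against 20% of all genes tested. Within samples 4 to 6 the medians of the 5 lists were 0.58, 0.53, 0.42, 0.45 and 0.41 in the order given, and within samples 1 to 3 they were at most 0.08.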

How the data were processed

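Left ventricles of 12 hypertensive-LVH and 12 control mice were compared. The authors deposited 1 value per gene symbol and sample with the unit FPKM, and their processing notes name Bowtie2, HISAT and RSEM. The genome build, annotation and versions were not given in the sources used here. The values behave as another unit, a FPKM adjusted within sets of samples (negative values, ties), and counts and depth were not recovered here. The columns of the table all matched a sample label.

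With negative values replaced by 0, the 14026 genes that averaged 0.1 or more were fitted as log2(FPKM + 1) in limma 3.58.1 (R 4.3.3, intensity trend, no covariate), and p-values were adjusted after Benjamini-Hochberg across these genes. The thresholds, an adjusted p under 0.05 and an absolute log2 fold change over 0.5, and limma are those of the study's methods. Single genes were also tested by an exact two-sided permutation within the 4 sets (160000 relabelings), unadjusted. Levels are FPKM as deposited, with negative values kept. Both procedures were run on simulated independent normal values with no adjustment within sets, so the effect of such a step was not tested. Positions are from GENCODE vM21 (48 of 48 symbols matched) and promoters from RefSeq (GRCm38.p6). Python 3.11.15, numpy 2.4.6, pandas 2.3.3, scipy 1.17.1 and matplotlib 3.10.9 were used for the rest.

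The genes, their grouping by role, the pathway and marker lists and the sets were chosen with earlier results of these data known. Every tested gene is named, except where a gene is not reported here. Those past the threshold and the 5 with the highest means are given by range and test. Cxcr4, Ccl2, Ccr2, Cxcl12, Ackr3, Cx3cl1 and Cx3cr1 are given by range or medians and by test. The same holds for a few others chosen after their values were seen (Ccl8, Ccl19, Ccl3, Cxcl9). From each pathway list the genes among the 3 largest log2 fold changes past the threshold are named, with the same exception, and any lower gene. The alternatives were 0.1 added before the logarithm, a filter at a mean of 1 or none, quantile normalization or median-ratio scaling, limma without the trend, the replicate number as a block, rank-sum tests (Wilcoxon), the set as a term, and leaving out each set or each sample.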

Additional observations from a re-analysis of the deposited data

How the results depend on the processing

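The number of genes past an adjusted p of 0.05, 19, became 12 with a mean of at least 1, where 29 were tested, and 9 without samples 4 to 6. Other settings gave 16 to 19, and it was 17 to 22 when 1 sample was left out. The number past both criteria, 12, became 19 with 0.1 added before the logarithm and 5 without samples 4 to 6, and it was 9 to 13 when 1 sample was left out. The median log2 fold change of the ligands, 0.14, became 0.005 without samples 4 to 6, 0.04 with a mean of at least 1, 0.06 under quantile normalization or with no filter, 0.24 without samples 1 to 3, 0.27 with 0.1 added and 0.32 without samples 10 to 12. That of the receptors, 0.31, became 0.19 without samples 4 to 6 and 0.64 with 0.1 added. When 1 sample was left out these medians were 0.11 to 0.24 and 0.27 to 0.33. Of the 19 genes, 17 passed in all 24 fits that left out 1 sample, and 8 passed under every other setting in which they were tested.

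The groups share replicate numbers, but the numbers did not pair the samples: the deviations of same-numbered samples correlated between -0.557 and -0.00109, and 0 of 12 correlated best with their own number. With the replicate block, 16 of the 44 genes and 2824 of all genes (against 4697) were past the threshold, and Ccl4, Cx3cr1 and Cxcr6 were lost.

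The printed estimates that changed sign belonged to genes not past the threshold. Without samples 4 to 6 these were Ccl2 (0.11), Ccl12 (-0.04), Cxcl12 (-0.22), Ackr3 (-0.07), Ccl21a (-0.002), Ccl19 (-0.43), Cxcl9 (-0.13), Cxcl2 (0.05), Cxcr2 (-0.01) and Cxcr5 (-0.04), and of these only Ccl19 then passed it. Without samples 7 to 9 they were Ccl12 (-0.29), Cxcl2 (0.03) and Ccl28 (0.02), without samples 10 to 12 Ccl2 (0.06), Ackr3 (-0.08), Cxcl1 (0.03) and Ccl25 (0.07), and without samples 1 to 3 Cxcl9 (-0.09), Ccr10 (0.01) and Ccl25 (0.04). Under quantile normalization they were Ccl12 (-0.04), Ackr3 (-0.02), Cxcl9 (-0.09), Cxcr2 (-0.05) and Cxcr5 (-0.02), under median-ratio scaling Cxcl12 (-0.02), Ackr3 (-0.04) and Cxcl9 (-0.04), and with 0.1 added Cxcl9 (-0.01). When 1 sample was left out, the log2 fold change was -0.27 to 0.08 for Ccl2, -0.08 to 0.22 for Ccl12, -0.03 to 0.09 for Cxcl12, -0.04 to 0.05 for Ackr3, -0.09 to 0.09 for Cxcl9, -0.13 to 0.0005 for Cxcl1, -0.12 to 0.04 for Cxcl2 and -0.04 to 0.02 for Ccl25. The cause of these changes was not tested. Depth is unknown, so what it limits among the genes under 1 FPKM could not be stated.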
